A study of Mus musculus with 6 samples.

Results

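The 9 genes described here encode integrin chains that leukocytes use to enter or settle in the central nervous system: Itgal, Itgam, Itgb2, Itga4, Itgb1, Itgb7, Itgb5, Itgae and Itgav. They were taken by symbol from the 28692 genes in the deposited matrices, and none of them served to sort cells into classes. The KO group held C57BL/6 mice lacking the microRNA miR-155 (miR-155KO), and the WT group held wild-type C57BL/6 mice. Both were sampled on days 0, 13 and 21 of experimental autoimmune encephalomyelitis (EAE), an induced autoimmune attack on myelin. The labels count days from induction and do not say whether the mice of day 0 were immunized. The sources used here do not say whether a library pooled all 5 mice listed for its group, nor the age and sex of the mice. Live CD45+ cells were sorted, and every genotype had a single droplet library of 3′ transcript ends per day. Brain is the labelled tissue, but spinal cord appears in the protocol too.

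Integrins are adhesion receptors made of an alpha and a beta chain, so a cell needs transcripts of both partners. Itgal with Itgb2 forms LFA-1, which binds ICAM-1 on endothelium during arrest and crawling of leukocytes. Itgam, the CD11b chain, with Itgb2 forms Mac-1, the complement receptor and adhesion molecule of myeloid cells. Itga4 with Itgb1 forms VLA-4, the receptor for VCAM-1 and fibronectin that natalizumab blocks in multiple sclerosis. Itgb7 pairs either with Itga4, which makes the gut-homing receptor for MAdCAM-1, or with Itgae (CD103), which binds E-cadherin on epithelium. Itgav with Itgb5 binds vitronectin and is used by phagocytes to take up apoptotic cells.

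Because the mutant mice lack a microRNA, the mature miR-155-5p and the match to it among the 9 genes are shown first. The microRNA comes from RefSeq (GRCm38.p6, chr16:84714143-84714165, plus strand), with its seed, bases 2 to 8, in capitals. The match lies in the 3′ UTR of Itga4 (GRCm38, chr2:79329053-79329082, plus strand), with the matching bases in capitals.
miR-155-5p: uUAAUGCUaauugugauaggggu
Itga4 3′ UTR: atattttaattGCATTAAagtagatacttt
The motifs searched on the sense strand of each 3′ UTR were AGCATTAA, AGCATTA and GCATTAA, and the first of them holds the other two. Itga4 carried 1 match in its annotated UTR of 6508 bases, beginning at base 2449, and the other 8 genes carried 0 in UTRs of 165 to 3581 bases. Of 544 genes with UTRs of similar length to that of Itga4, 47.61% held such a match, against 12.66% of all 20727 genes searched. A match is a description of the letters and says nothing of binding.

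The libraries held 1681 to 5630 barcodes and 6321841 to 24243660 UMIs (unique molecular identifiers, 1 per captured transcript), with 3019 to 4368.5 UMIs in the median cell. The miR-155 host transcript Mir155hg gave 0, 0 and 1 UMIs in KO (days 0, 13 and 21), and 2, 45 and 59 UMIs in WT. Of 20007 cells kept, 15864 were placed in 1 of 14 classes by at least 3 detected marker genes, and 4143 fitted none clearly. Among the 10 leading genes of each class with 50 cells or more, its own markers outnumbered those of any other class. Levels below are UMIs scaled to 1000000 UMIs (CPM) of a class in 1 library with at least 50 such cells unless stated. Pairs of libraries shared 5 to 32 barcodes. Titles carry a number prefix that is common to KO and WT of a day but differs between days, so a batch marked by it and the day cannot be told apart.

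The 9 genes were spread unevenly over the classes, and Itgb5 belonged mainly to microglia. Microglia, the resident phagocytes of the brain, held 1315, 800.4 and 1154 CPM of it in KO libraries of days 0, 13 and 21, and 1311, 934.5 and 924.1 CPM in WT libraries. Nonclassical monocytes, with 50 cells in the KO library of day 21 alone, held 78.7 CPM. Monocytes and macrophages ran from 43.6 to 61.9 CPM over 5 libraries, and neutrophils from 3.34 to 13.6 CPM over 6. All 5 libraries with enough cells of both put microglia above monocytes and macrophages, with no overlap. Its partner Itgav was at 20.3 to 42.8 CPM in microglia and 50.6 CPM (9 UMIs) in those nonclassical monocytes, against 3.55 to 17.1 CPM in T cells and 2.22 to 6.55 CPM in neutrophils.

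**Figure D1:**
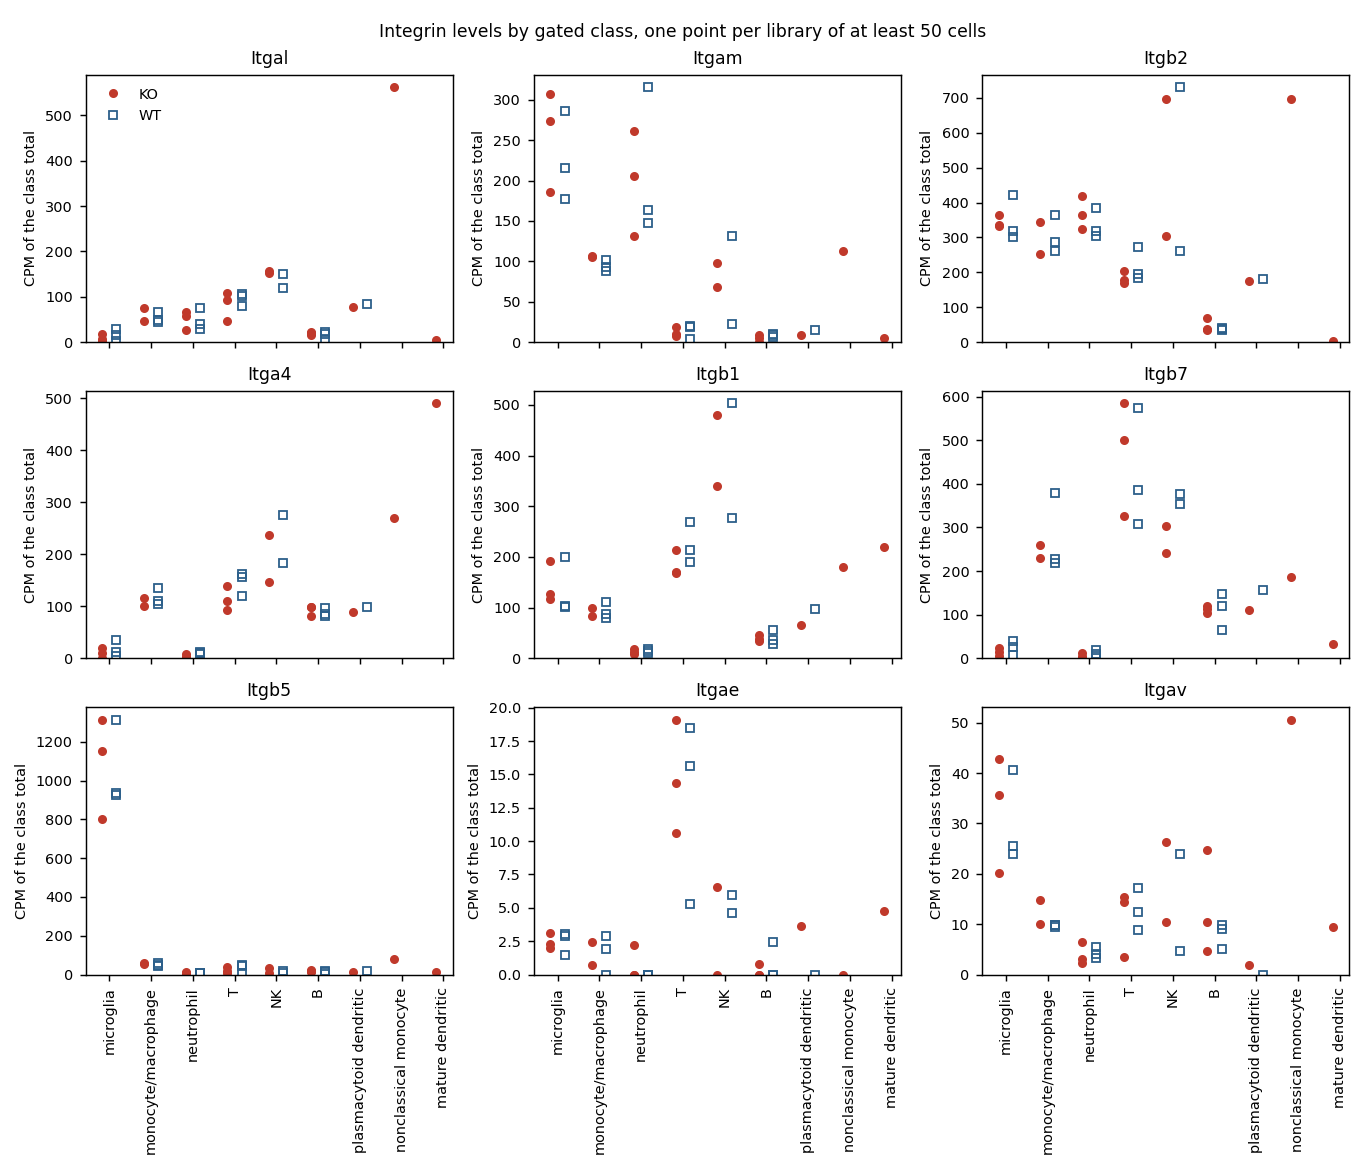
Level of each of the 9 integrin genes in the cell classes (1 panel each, vertical axis in CPM of the class, linear scale). Each point is 1 library with at least 50 gated cells, KO filled red circles to the left of WT open blue squares. Itgb5 stands at 800.4 CPM or above in all 6 microglial sums, while Itga4 and Itgb7 stand higher in T and NK cells than in neutrophils.

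The myeloid chain Itgam was highest in microglia, with 177 to 307 CPM, and in neutrophils, with 131 to 316 CPM, and these ranges overlapped. Monocytes and macrophages had 88.3 to 107 CPM. NK cells, which also carry CD11b, had 23.0 to 132 CPM, against 4.47 to 20.4 CPM in T cells. Of the shared chain Itgb2, NK cells held 262 to 731 CPM, above neutrophils in 2 of 4 libraries. Neutrophils held 303 to 418 CPM of it, microglia 302 to 421 CPM, monocytes and macrophages 252 to 365 CPM, T cells 170.3 to 272 CPM and B cells 35.6 to 69.1 CPM. Mature dendritic cells, led by Ccr7, reached 50 cells only in the KO library of day 13, where 53 cells gave 1 UMI of it. Neutrophils exceeded microglia in Itgb2 in only 4 of 6 libraries, so those 2 classes did not separate. Itgal, the alpha chain of LFA-1, was at 119.6 to 158 CPM in NK cells, with 46.1 to 109 CPM in T cells and 2.51 to 28.5 CPM in microglia. Nonclassical monocytes, the patrolling type, reached 50 cells only in the KO library of day 21. There Itgal was at 562 CPM, above every other class, and Itgb2 at 697 CPM.

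Itga4 and Itgb7 were higher in lymphocytes and in monocytes and macrophages than in microglia and neutrophils, a pattern that Itgb1 did not follow. Itga4 was at 146 to 276 CPM in NK cells, 92.2 to 163 CPM in T cells, 99.95 to 135 CPM in monocytes and macrophages and 80.9 to 99.1 CPM in B cells. It was at 1.20 to 35.7 CPM in microglia and 3.15 to 11.4 CPM in neutrophils, below B cells in 6 of 6 libraries in both. Mature dendritic cells stood higher, at 490.5 CPM in the 53 KO cells of day 13, and nonclassical monocytes of the KO library of day 21 were at 269.9 CPM, above NK cells of that library. Itgb1 was at 276 to 503 CPM in NK cells and 168 to 269 CPM in T cells. Microglia held 101 to 200 CPM of Itgb1 and neutrophils 8.07 to 18.6 CPM. Monocytes and macrophages, at 79.2 to 111 CPM, were below microglia in 5 of 5 libraries, and B cells held 28.2 to 56.3 CPM. Itgb7 was highest in T cells, with 308 to 584 CPM, followed by NK cells with 240.4 to 377 CPM and monocytes and macrophages with 219 to 378 CPM. The T and NK ranges overlapped, and T exceeded NK in 3 of 4 libraries.

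Itgae was sparse, with 691 UMIs in all 6 libraries together. It reached 5.32 to 19.1 CPM in T cells and was at 0 in 5 of 6 neutrophil sums. Within T cells, those with detected Foxp3, the regulatory T cell factor, held 59.7 CPM in 20 KO cells and 11.8 CPM in 21 WT cells on day 13 (7 and 2 UMIs), and 39.6 CPM in 24 KO cells and 36.8 CPM in 94 WT cells on day 21 (3 and 13 UMIs). Type 1 dendritic cells, for which CD103 is a known marker, gave 25 Itgae UMIs, or 161 CPM, in 21 cells of the WT library of day 21. The order of neighbouring classes was tested by an exact two-sided sign-flip permutation test over libraries for 45 pairs of classes. None passed after Benjamini-Hochberg adjustment, where 0.148 was the smallest adjusted p. With 6 libraries the test cannot give a p below 0.03125, a value that 7 pairs reached, and 24 pairs had the same order in every library that held both classes.

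Genotype was compared over all 3 days with edgeR's quasi-likelihood test, with day as a block and Benjamini-Hochberg adjustment over all genes. None of the 9 integrins differed between KO and WT by this test in microglia, T cells, neutrophils, B cells or monocytes and macrophages, where 0.00989%, 0.509%, 0.475%, 0.0595% and 0% of all genes tested did. NK cells and the dendritic classes had too few gated cells for it. With classes taken from Leiden clusters, the Cd209a dendritic class could be fitted on days 13 and 21, and 0 of 8 members differed between KO and WT, against 0.236% of all genes. Itgae was lower there on day 21 than on day 13, the only member of 8 to pass (log2 change -1.76 ± 0.21, SE; edgeR adjusted p = 3.65e-06), against 3.09% of all genes. Plet1, Ifi205 and Olfm1 were among the leading genes of that cluster and also of type 1 dendritic cells, and the part of such cells in the change was not tested. Between KO and WT, DESeq2 also called 0 members in microglia, T cells, neutrophils, B cells and monocytes and macrophages. At an unadjusted p under 0.05 the edgeR test gave 1 of 9 tested members in microglia, 2 of 9 in T cells, 1 of 7 in neutrophils, 0 of 5 in B cells and 0 of 8 in monocytes and macrophages, the rest being under the low-count filter.

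The microglial gene was Itgb7, with 5.02, 22.9 and 14.6 CPM in KO libraries of days 0, 13 and 21, and 8.78, 25.1 and 39.4 CPM in WT libraries. KO was the lower of the pair on each day, and the ranges over days overlapped. Its log2 fold change, KO over WT, was -0.88 ± 0.26 (SE; edgeR quasi-likelihood test, Benjamini-Hochberg adjusted p = 0.9999). It passed with no low-count filter (-0.86, edgeR adjusted p = 0.0193) and without the KO or the WT library of day 13, which also takes that day out of the contrast (-1.27 in both, adjusted p = 0.0147 and 0.0163). Itga4 in microglia was at -0.98 ± 0.46 (edgeR adjusted p = 0.9999), and at -1.89 without either day 13 library (adjusted p = 0.00241 and 0.00246). Without either library of day 21 the changes were -0.41 for Itgb7 and -0.06 and -0.07 for Itga4, and adjusted p over all alternatives ran up to 0.99997. Summed T cell markers in the same microglia were at 25.8, 169 and 88.9 CPM in KO and 73.2, 176 and 661 CPM in WT. They were lower in KO on each day, as was Itgb7, whereas Itga4 was higher in KO on day 13 (20.3 against 12.7 CPM). Among microglia with 0 UMIs of T, NK and B markers, the log2 fold change over days was -0.03 for Itgb7 and -0.19 for Itga4 (edgeR adjusted p = 0.9999 for both).

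In summed microglia, integrin chains differed between day 13 and day 0 in both directions, while monocyte and T markers rose in the same sums, as given below. Itga4, Itgal and Itgb7 were higher on day 13 than on day 0, Itgb2 was somewhat higher, and Itgb1 and Itgav were lower. These 6 of 9 passed edgeR's quasi-likelihood test with Benjamini-Hochberg adjustment, against 27.9% of all genes tested, whose median log2 change was -0.01. On plain CPM the median of all genes shifted between these days by -0.24 in microglia, 0.22 in T cells, 0.18 in neutrophils and -0.34 in B cells. The directions given for called members were the same on both scales.

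In microglia of day 13, Itga4 was at 20.3 CPM in KO and 12.7 CPM in WT, against 1.20 and 4.60 CPM in KO and WT on day 0. Itgal was at 16.99 and 16.6 CPM in KO and WT on day 13, against 3.59 and 2.51 CPM on day 0. Itgb7 was at 22.9 and 25.1 CPM in KO and WT on day 13, against 5.02 and 8.78 CPM on day 0. For all 3 genes both day 13 libraries lay above both day 0 libraries, at levels still far under those of T cells. The log2 fold changes were 2.66 ± 0.62 for Itga4, 2.64 ± 0.58 for Itgal and 2.00 ± 0.34 for Itgb7 (SE; edgeR adjusted p = 0.0116, 0.00842 and 0.00211). Itga4 and Itgb7 passed under every alternative that kept them above the count filter, with adjusted p up to 0.0275 and 0.0211. Itgal did not pass without the WT library of day 0, whose removal leaves 1 sample on that day, assumed to vary like the others (1.81, edgeR adjusted p = 0.106, the highest of its alternatives).

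**Figure D2:**
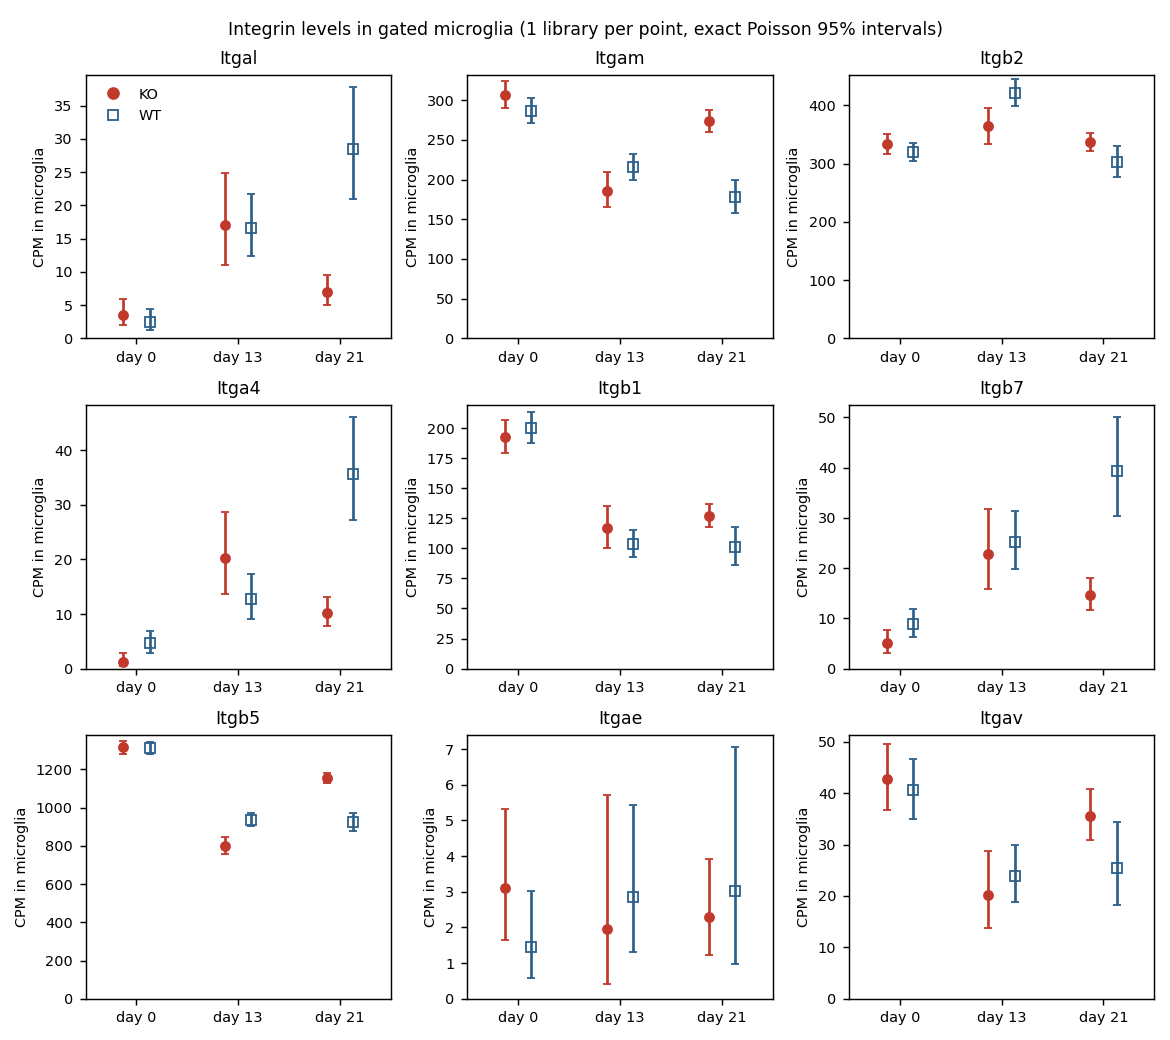
Level of each integrin gene in gated microglia (vertical axes in CPM of microglia) on days 0, 13 and 21 (horizontal axes), 1 library per point with exact Poisson 95% intervals that cover counting error only, KO filled red circles to the left of WT open blue squares. Itga4, Itgal and Itgb7 stand higher on day 13 than on day 0 in both genotypes, and on day 21 their WT points (28.5 to 39.4 CPM) stand above their KO points (7.04 to 14.6 CPM).

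Markers of other cells moved the same way in these microglia. The 8 monocyte and macrophage markers summed to 898 and 779 CPM in KO and WT on day 13, against 129 and 138 CPM on day 0, and the 10 T markers to 169 and 176 CPM, against 25.8 and 73.2 CPM. All of them were detected on both days except Vcan (0 UMIs in KO on day 13 and WT on day 0), F10 and Cd6 (0 UMIs in KO on day 0). Microglial markers were lower, at 7227 and 8279 CPM in KO and WT on day 13, against 22239 and 21212 CPM on day 0. Among microglia with 0 UMIs of T, NK and B markers, the 3 genes still passed edgeR's test, at 3.30 for Itga4, 3.35 for Itgal and 2.37 for Itgb7. Among microglia that also lacked monocyte and macrophage markers, 51 KO and 144 WT cells remained on day 13. They held 1 and 0 UMIs of Itga4, 1 and 3 of Itgal and 1 and 2 of Itgb7, too few to be tested. The part of transcripts from monocyte-derived cells in these increases therefore could not be separated at this depth.

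Itgb2 was at 364 and 421 CPM in KO and WT microglia on day 13, against 333 and 319.6 CPM on day 0, again without overlap. Its log2 fold change was 0.50 ± 0.15 (SE; edgeR adjusted p = 0.0288). Of 5 members tested among microglia free of lymphoid and monocyte markers, Itgb2 alone passed (0.63, edgeR adjusted p = 0.00951). Of all 7748 genes tested in those cells, 608 rose and 351 fell. The call was lost without the KO library of day 0 (0.54, adjusted p = 0.25), the WT library of day 0 (0.43, adjusted p = 0.432) or the WT library of day 13 (0.35, adjusted p = 0.236), and by DESeq2 (adjusted p = 0.0963).

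The chains that fell were Itgb1 and Itgav. Itgb1 was at 117 and 104 CPM in KO and WT on day 13, against 193 and 200.04 CPM on day 0, a log2 change of -0.60 ± 0.14 (SE; edgeR adjusted p = 0.0118). Itgav was at 20.3 and 23.9 CPM in KO and WT on day 13, against 42.8 and 40.6 CPM on day 0, a log2 change of -0.64 ± 0.19 (SE; edgeR adjusted p = 0.032). Neither gene overlapped between the days. In microglia free of lymphoid and monocyte markers the changes were -0.23 for Itgb1 (edgeR adjusted p = 0.585) and -0.70 for Itgav (adjusted p = 0.337). DESeq2 called neither (adjusted p = 0.0831 and 0.281). Itgb1 also failed without the KO (adjusted p = 0.0622) or WT (0.309) library of day 0 or the WT library of day 13 (0.0697). Itgav failed without the KO (0.141) or WT (0.253) library of day 0 or the KO library of day 13 (0.213).

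The changes of Itgb5 and Itgam, 2 chains abundant in microglia, did not pass. Itgb5 changed by -0.36 ± 0.17 on the log2 scale between day 13 and day 0, and Itgam by -0.31 ± 0.18 (SE; edgeR adjusted p = 0.138 and 0.232). Both passed once either library of day 21 was left out (Itgb5 at -0.37, edgeR adjusted p = 0.0134 and 0.0151; Itgam at -0.33, adjusted p = 0.0236 and 0.0257). In microglia free of lymphoid and monocyte markers, Itgb5 stood at -0.06 (edgeR adjusted p = 0.878). Over all cells, Itgb5 was at 899, 158 and 501 CPM in KO on days 0, 13 and 21, and 774, 242 and 166 CPM in WT. In such sums fewer microglia and less RNA per microglial cell cannot be told apart, and gated microglia supplied 96.8%, 42.9% and 84.4% of the gene's UMIs in KO and 94.7%, 59.9% and 37.8% in WT. Between day 21 and day 13, 0 of 9 integrins passed edgeR's test in microglia (0.306% of all genes), with 1 at an unadjusted p under 0.05, Itgav at 0.48 ± 0.20, and 0 by DESeq2. Without the WT library of day 21, Itgal (-1.38, edgeR adjusted p = 0.00956) and Itgav (0.65, adjusted p = 0.0458) passed, and without the KO library of day 21, Itga4 did (1.24, adjusted p = 0.0117).

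Within a day there was 1 KO library against 1 WT library, so these ratios have no replicate check, and their 95% intervals cover counting error only. On day 0 none of the 5 integrins measured at 10 CPM or more in microglia was 1.5-fold apart (2.59% of all genes were). On day 13, 1 of 8 was, Itga4 at 1.59 (0.963 to 2.61), against 7.78% of all genes. On day 21, 4 of 8 were, against 15.5%. Itgal was at 0.247 of WT (0.158 to 0.385), Itga4 at 0.286 (0.195 to 0.418) and Itgb7 at 0.371 (0.265 to 0.522), while Itgam was 1.54-fold higher in KO (1.36 to 1.75). Thus Itgal, Itga4 and Itgb7 were lower in KO on day 21 and the Mac-1 alpha chain was higher.

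Summed T markers in day 21 microglia were 88.9 CPM in KO and 661 CPM in WT, and all 10 of them were detected in both. Among day 21 microglia with 0 UMIs of T, NK and B markers, 1299 KO and 347 WT cells, the KO to WT ratio was 0.576 for Itgal (0.270 to 1.33), 0.507 for Itga4 (0.212 to 1.34) and 0.533 for Itgb7 (0.265 to 1.14). All 3 intervals then included 1. Itgam stayed above 1 there, at 1.39 (1.18 to 1.65), Itgb5 was at 1.17 (1.09 to 1.26) and Itgb1 at 1.67 (1.29 to 2.20). With monocyte and macrophage markers also at 0, Itgb1 was at 1.77 (1.19 to 2.74), Itgam at 1.18 and Itgb5 at 1.03.

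**Figure D3:**
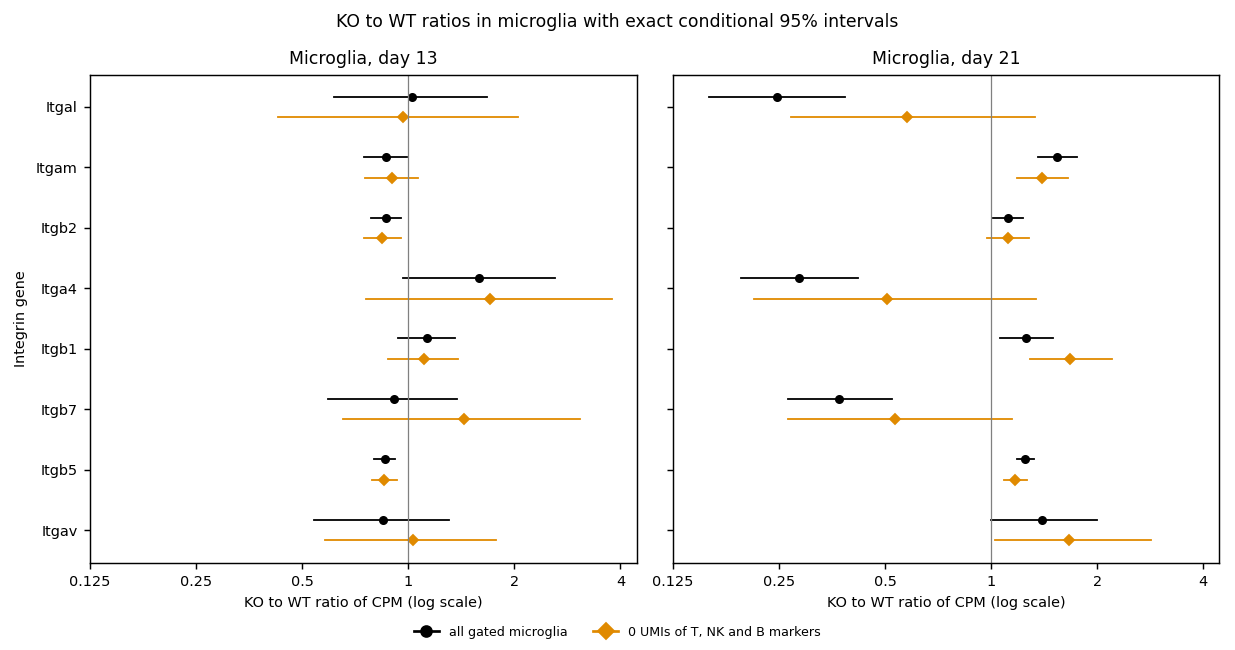
Ratio of KO to WT level (horizontal axes, log scale, 1 library each) of 8 integrin genes in microglia on day 13 and day 21, in all gated microglia (black circles) and in those with 0 UMIs of T, NK and B markers (orange diamonds), with exact conditional 95% intervals. On day 21 Itgal, Itga4 and Itgb7 stand at 0.247 to 0.371 in all microglia and at 0.507 to 0.576 with wider intervals in the marker-free cells. Itgae is left out for its low counts.

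In T cells, EAE onset came with more Itgb7 and Itgb5. Itgb7 was at 584 and 574 CPM in KO and WT T cells on day 13, against 326 and 308 CPM on day 0, without overlap, a log2 change of 0.64 ± 0.14 (SE; edgeR adjusted p = 0.00515). Itgb5 was at 36.8 and 45.5 CPM in KO and WT on day 13, against 7.10 and 8.93 CPM on day 0, a log2 change of 2.14 ± 0.50 (SE; edgeR adjusted p = 0.00727). These were 2 of 9 members, against 14.5% of all genes. Itgb7 did not pass without the KO (0.60, edgeR adjusted p = 0.086) or WT (0.70, adjusted p = 0.0578) library of day 0. Itgb5 did not pass without the WT library of day 0 (1.91, adjusted p = 0.201) or by DESeq2 (adjusted p = 0.0836). Itgb5 was mainly microglial, and microglial markers in these T cells were at 188 and 284 CPM in KO and WT on day 13, against 238 and 217 CPM on day 0. Monocyte and macrophage markers were at 1451 and 1681 CPM on day 13, against 890.5 and 924 CPM on day 0, with Vcan and Arg1 at 0 in both day 0 libraries and 1 of them at 0 in each day 13 library, and their part in the result was not tested. Between day 21 and day 13, 0 of 9 passed edgeR's test in T cells (2.44% of all genes), with 2 at an unadjusted p under 0.05, Itgb7 at -0.31 ± 0.12 and Itgae at 1.27 ± 0.39, and 0 by DESeq2. Itgae passed without the KO library of day 13 (1.92, edgeR adjusted p = 0.0223) or of day 21 (1.57, adjusted p = 0.0389).

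The VLA-4 chains leaned lower in KO T cells. Itga4 was at 92.2, 109.5 and 140.1 CPM in KO T cells of days 0, 13 and 21, and 121, 163 and 157 CPM in WT T cells. KO was the lower of the pair on each day, while the ranges overlapped. The log2 fold change over days was -0.34 ± 0.14 (SE; edgeR adjusted p = 0.645). Itgb5 had the other unadjusted p under 0.05 (-0.61 ± 0.25, edgeR adjusted p = 0.637). Itgb1 was at 170.3, 168 and 213 CPM in KO T cells of days 0, 13 and 21, and 189.8, 269 and 214 CPM in WT, with the 2 genotypes level on day 21. Within days, the KO to WT ratio of Itgb1 was 0.623 on day 13 (0.518 to 0.746) and that of Itga4 was 0.671 (0.532 to 0.842). In all, 1 of 6, 3 of 9 and 1 of 9 members measured in T cells were 1.5-fold apart on days 0, 13 and 21, against 40.7%, 15% and 19.6% of all genes. They were Itgal at 0.574 on day 0, Itgb1, Itgam (0.559) and Itgae (2.69) on day 13 and Itgb5 at 0.433 on day 21. That Itgb5 ratio turned the other way with T cells taken from Leiden clusters.

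In all gated CD8 T cells, the cytotoxic subset, both chains had the lower value in KO on each day. Itga4 was at 107, 83.1 and 89.9 CPM in KO CD8 T cells of days 0, 13 and 21, and 122, 161 and 188 CPM in WT CD8 T cells. Itgb1 was at 98.8, 46.9 and 111 CPM in KO and 158, 151 and 189 CPM in WT. All 3 KO values of each gene lay below all 3 WT values, from 35, 59 and 39 KO cells and 63, 112 and 493 WT cells. The LFA-1 chains also had the lower value in KO on each day. Itgal was at 32.9, 101 and 69.2 CPM in KO and 68.9, 106 and 133 CPM in WT. Itgb2 was at 90.6, 191 and 194 CPM in KO and 126, 262 and 223 CPM in WT. Itgb7 was higher in KO on day 13 (437 against 340 CPM). In a fit with a minimum of 30 cells, added after the data were seen, the log2 fold change was -0.71 ± 0.23 for Itga4 and -0.97 ± 0.25 for Itgb1 (SE; edgeR quasi-likelihood test, Benjamini-Hochberg adjusted p = 0.202 and 0.0823). On day 13, 4 of 9 members were 1.5-fold apart in CD8 T cells, against 39.6% of all genes. Itga4 stood at 0.517 of WT (0.313 to 0.82) and Itgb1 at 0.311 (0.16 to 0.559), Itgam was lower on 1 and 7 UMIs in KO and WT, and Itgae was higher on 4 and 2 UMIs.

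Summed NK markers, which effector CD8 T cells share in part, were at 132, 238 and 449.6 CPM in KO CD8 T cells of days 0, 13 and 21, and 207, 2150 and 1091 CPM in WT. Ncr1, the NK receptor among them, was at 0 in both genotypes on days 13 and 21. Among CD8 T cells with 0 UMIs of those markers, 42 KO and 44 WT cells on day 13, the ratio was 1.004 for Itga4 (0.458 to 2.16) and 0.257 for Itgb1 (0.103 to 0.559). On day 21, with 29 KO and 266 WT cells, it was 0.547 for Itga4 (0.267 to 1.01) and 0.660 for Itgb1 (0.321 to 1.22). On day 0, with 30 KO and 50 WT cells, it was 1.07 for Itga4 (0.492 to 2.24) and 0.609 for Itgb1 (0.197 to 1.62). In these cells the Itga4 ratio was near 1 on days 0 and 13, with intervals too wide to exclude a lower level in KO. The day 13 interval held the 0.517 of all gated CD8 T cells. In all T cells without NK marker UMIs, the log2 fold change over days was -0.20 for Itga4 and -0.29 for Itgb1 (edgeR adjusted p = 0.997 and 0.853). In CD4 T cells, Itga4 was at 138 and 199.7 CPM in KO and WT on day 13 and 147 and 161 CPM on day 21, where KO had only 41 cells. Itgb1 was at 329.5 and 462 CPM in KO and WT CD4 T cells on day 13, and 350.2 and 297 CPM on day 21, where the ratio of 1.18 had an interval that included 1 (0.821 to 1.66). Of 8 members measured in CD4 T cells on day 13, 2 were 1.5-fold lower in KO, against 40.6% of all genes: Itgb2 at 0.637 (0.459 to 0.872) and Itgam on few UMIs.

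**Figure D4:**
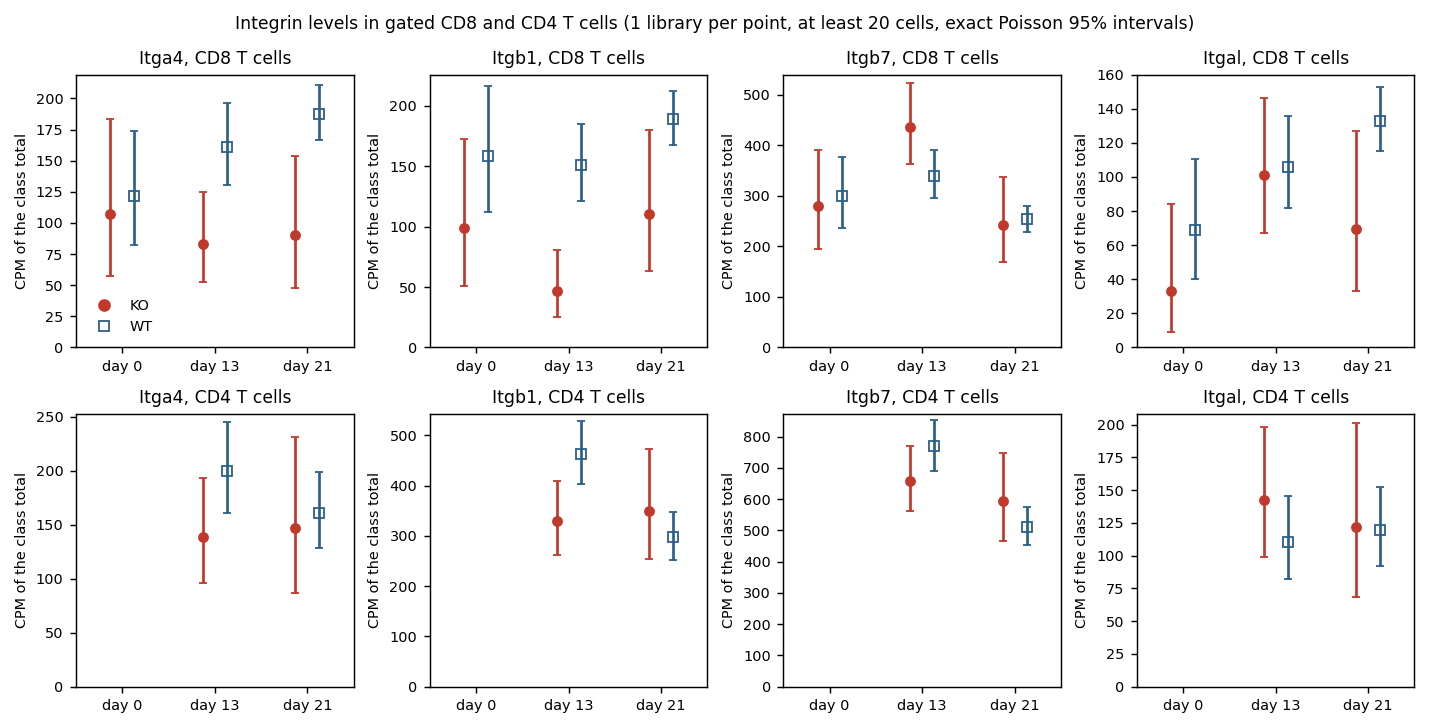
Levels of Itga4, Itgb1, Itgb7 and Itgal (vertical axes in CPM of the class) in gated CD8 T cells (top) and CD4 T cells (bottom) by day, 1 library per point with at least 20 cells and exact Poisson 95% intervals, KO filled red circles to the left of WT open blue squares. In CD8 T cells the KO points of Itga4 and Itgb1 lie below the WT points on each day, while the Itgb7 points stand close together on day 21 (242 CPM in KO and 254 CPM in WT).

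In neutrophils the LFA-1 and Mac-1 alpha chains fell at onset, while the change of their beta chain did not pass. Itgal was at 27.8 and 28.6 CPM in KO and WT neutrophils on day 13, against 66.2 and 74.8 CPM on day 0, a log2 change of -1.50 ± 0.26 (SE; edgeR adjusted p = 0.000527). Itgam was at 131 and 148 CPM in KO and WT on day 13, against 262 and 316 CPM on day 0, a log2 change of -1.20 ± 0.19 (SE; edgeR adjusted p = 0.00021). Both genes had no overlap between the days. Itgb2 was at 418 and 386 CPM in KO and WT on day 13, against 366 and 319.8 CPM on day 0, and did not pass (log2 change 0.10 ± 0.15, edgeR adjusted p = 0.728). With Itgb7, which was higher on few UMIs (1.74 ± 0.57, edgeR adjusted p = 0.0439), 3 members passed, against 16.2% of all genes. Without the WT library of day 0, the changes were -1.08 for Itgal, -0.89 for Itgam and 1.75 for Itgb7 (edgeR adjusted p = 0.188, 0.106 and 0.523). Itgb7 also failed without the KO library of day 0 (adjusted p = 0.118) or of day 13 (0.0968) and under a gate of 4 markers (0.0559), and DESeq2 gave it no adjusted p. Monocyte and macrophage markers in these neutrophils were at 4931 and 4836 CPM in KO and WT on day 13, against 1648 and 1698 CPM on day 0, with Arg1 at 0 in KO on day 13 and in both libraries of day 0, and their part in the result was not tested.

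Itgal in neutrophils was higher again on day 21, at 57.0 CPM in KO and 40.7 CPM in WT, than on day 13, a log2 change of 0.88 ± 0.23 (SE; edgeR adjusted p = 0.0312). It was the only member that passed, against 4.95% of all genes. The call was lost without the KO library of day 0 (0.87, adjusted p = 0.0636), of day 13 (0.75, 0.104) or of day 21 (0.60, 0.194), and by DESeq2 (adjusted p = 0.383). It was also lost among neutrophils free of lymphoid markers (0.63, adjusted p = 0.177) and under a gate of 4 markers (adjusted p = 0.0535). Itgb2 leaned the other way between genotypes in neutrophils, at 366, 418 and 325 CPM in KO of days 0, 13 and 21 and 319.8, 386 and 303 CPM in WT, a log2 fold change of 0.28 ± 0.12 (SE; edgeR adjusted p = 0.368). Within days, 0 of 4, 0 of 5 and 1 of 6 members were 1.5-fold apart in neutrophils on days 0, 13 and 21, against 37%, 21.8% and 21.3% of all genes, and that 1 was Itgb1 at 8.07 CPM in KO and 13.9 CPM in WT.

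In monocytes and macrophages, within days 13 and 21 no member was 1.5-fold apart between KO and WT, against 3.15% and 15.6% of all genes. Itga4, for example, was at 99.95 and 111 CPM in KO and WT on day 13 and 115 and 104 CPM on day 21. Itgal came nearest to that fold, at 74.5 and 49.9 CPM in KO and WT on day 21, a ratio of 1.49 (1.16 to 1.90), or 1.70 (1.29 to 2.23) in cells without lymphoid markers. The ratio of Itgb1 on that day was 1.26 (1.02 to 1.54). Itgb2 was at 252 and 262 CPM in KO and WT on day 21, against 343 and 365 CPM on day 13, without overlap. Its log2 change of -0.51 ± 0.14 did not pass edgeR's test over 4 libraries (SE; adjusted p = 0.12), where 0 members passed against 2.55% of all genes, with 1 at an unadjusted p under 0.05 and 0 by DESeq2. It passed over 6 libraries with at least 30 cells (edgeR adjusted p = 0.0486), where 219 genes rose and 274 fell of 8674 tested. It also passed with no low-count filter (edgeR adjusted p = 0.0343), where 356 rose and 464 fell of 14091. In that 6-library fit Itgb7 was lower on day 13 than on day 0 (-0.51 ± 0.15, edgeR adjusted p = 0.0379). It was 1 of 8 members tested there, against 719 genes up and 629 down of 8674.

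In B cells, Itgb7 was at 119 and 149 CPM in KO and WT on day 13, against 104 and 66.0 CPM on day 0, a log2 change of 1.07 ± 0.27 (SE; edgeR adjusted p = 0.00837). It was the only member that passed there, against 14.9% of all genes, and the days did not overlap. The call was lost by DESeq2 (adjusted p = 0.221) and without the WT library of day 0 (0.59, edgeR adjusted p = 0.479) or of day 13 (0.88, adjusted p = 0.0806). B cell Itga4 kept to a narrow range, 80.9 to 99.1 CPM in KO and 81.0 to 97.4 CPM in WT. Within days 0, 13 and 21, 4 of 7, 2 of 6 and 1 of 7 members measured in B cells were 1.5-fold higher in KO and 0 were lower, against 45.1%, 18.1% and 34.9% of all genes 1.5-fold apart, and every interval included 1. Between day 21 and day 13, 0 members passed edgeR's test in B cells (0.694% of all genes), with 0 at an unadjusted p under 0.05 and 0 by DESeq2. NK cells had enough cells on days 0 and 21, where Itgb2 was at 697 and 731 CPM in KO and WT on day 0 and 303 and 262 CPM on day 21. Of 8 members measured in NK cells, 1 on day 0 and 2 on day 21 were 1.5-fold higher in KO, against 51.6% and 47.9% of all genes 1.5-fold apart in either direction. Plasmacytoid dendritic cells of day 13 had 1 of 7, Itgam on 5 and 5 UMIs in KO and WT, against 32.1%.

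Other genes of the same adhesion steps were read from fixed lists. None of those tested differed between KO and WT over days by edgeR's test with Benjamini-Hochberg adjustment in any class. Between day 13 and day 0 in microglia, 5 of 11 tested ligands of these integrins rose and 3 fell, with a median log2 change of 0.71 against -0.01 for all genes, 27.9% of which passed. Vcam1, the ligand of VLA-4, was at 34.6 and 47.7 CPM in KO and WT on day 13, against 5.26 and 5.64 CPM on day 0 (log2 change 3.13, edgeR adjusted p = 0.000105). Icam1, the ligand of LFA-1, was at 179 and 173 CPM in KO and WT on day 13, against 130.3 and 123 CPM on day 0 (0.71, adjusted p = 0.00406). C3, whose fragments Mac-1 binds, was at 12.4 and 12.1 CPM on day 13, against 0.478 and 1.46 CPM (3.79, adjusted p = 0.000307), and Fn1 and Thbs1 rose too. The monocyte and T markers given above rose in the same microglia. Among microglia with 0 UMIs of lymphoid and monocyte markers, Vcam1 (3.05) and Icam1 (0.67) passed edgeR's test (adjusted p = 6.77e-05 and 0.0218), while C3, Fn1 and Thbs1 were under the count filter. Tgfb1, whose latent form alpha v integrins activate, fell by 1.08 (adjusted p = 0.00458), as did the junction genes F11r and Jam2.

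Of the other integrin subunits, 5 of 17 were tested in microglia. Itgax (CD11c) rose to 18.3 and 19.7 CPM in KO and WT on day 13, against 3.59 and 4.60 CPM on day 0 (log2 change 2.42, edgeR adjusted p = 0.000433), and Itga9 fell (-1.47, adjusted p = 0.00717). In microglia free of those markers Itgax was at 3.38 (edgeR adjusted p = 0.00116). Of 17 tested activation and adaptor genes, 2 rose, Tln1 (talin, which switches integrins on) and Sharpin (which keeps them off), and 4 fell, Apbb1ip, Cyth1, Rap1a and Rassf5, a share near the 27.9% of all genes. In the marker-free microglia Apbb1ip and Sharpin passed and Tln1, Cyth1, Rap1a and Rassf5 did not. Among other adhesion molecules, Cd2, Cd44 and Spn rose and Cd9, Pecam1 and Selplg fell. Cd44 (4.71, edgeR adjusted p = 8.59e-06) and the 3 that fell also passed in the marker-free microglia, while Cd2 and Spn were under the count filter there. In T cells, Cyth1, Rassf5, Stk4 and Itga6 fell, and Spn and Cd81 rose. In neutrophils Selplg and Cd47 rose and Cd9, Thbs1 and Vcl fell, and in B cells Cyth1 and Tgfb1 fell. Between day 21 and day 13, Rasgrp2 and Spn rose and C3 and F11r fell in monocytes and macrophages, and Cd9 rose and Vav1 fell in neutrophils.

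Within day 21, the KO to WT ratio in T cells was 2.20 for F11r, 1.61 for Cyth1 and 1.52 for Rasgrp2, and on day 13 that of Cd226 was 0.642. In day 21 microglia, Cd2 (0.139), Skap1 (0.196), Spn (0.269), Vcam1 (0.410), Rasgrp2 (0.452) and Itgax (0.573) were lower in KO, and Spp1 (3.11), Tgfb1 (1.70) and Fermt3 (1.54) were higher. Cd2 and Skap1 are genes of T cells, and the summed T markers given above differ the same way. On day 13, the ratio of Mfge8 in microglia was 0.573 on 12 and 43 UMIs in KO and WT, with an interval that included 1 (0.275 to 1.11).

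The genes most like each integrin in level were ranked over 37 sums of 1 class in 1 library, among 7265 genes with the class markers left out. The sums share libraries and depth, so the correlations are descriptions. Itgb5 was closest to Csf1r, the receptor for microglial growth factors (Pearson r 0.955), then Abhd12 and Trem2. Itga4 was closest to Runx3 (0.935), then Crip1 and Uqcrh, and Itgb7 to Tpt1 (0.926), then Lsm4 and Ifi203. Itgam was closest to Fcer1g (0.885), then Tnfrsf1a and Sqrdl, Itgb2 to Ptpre (0.864), then Myo1f and Hgsnat, and Itgal to Spn (0.866), then H2afj and Emp3. Itgb1 was closest to Dnajc1 (0.899), then Lfng and Arl4c, Itgae to Rora (0.807), then Cd247 and Tcf7, and Itgav to Egr1 (0.827), then Hspa1a and Itch. A second row carries the symbol Itgam, a readthrough locus that overlaps the gene and held 599 UMIs against 12365 in the main row, so reads of the overlap may be lost from the Itgam values.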

How the data were processed

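The authors deposited unnormalized UMI counts of each gene in each barcode, with Cell Ranger 2.0.2 and mm10 named in the submitters' processing notes. The sources used here give no counting options and no further barcode or doublet filter. Cells were kept if they had 200 or more genes and no more than 10% of UMIs from mitochondrial genes (Python 3.11.15, scanpy 1.11.5, pandas 2.3.3). A cell entered the class with the highest share of its markers detected. At least 3 had to be detected, with every other class below 0.667 of that share, which also sets aside many mixed barcodes. No doublet caller was run, and an alternative left out cells above 2 times the median UMIs of their class and library. UMIs were summed per class and library.

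Sums with at least 50 cells in every library were fitted with edgeR 4.0.16 (R 4.3.3), using TMM scaling, the default low-count filter, the quasi-likelihood test and Benjamini-Hochberg adjustment over all genes at 0.05. The design held genotype and day, so the 3 days served as replicates of genotype and the 2 genotypes as replicates of day. The p-values therefore measure the spread between these libraries. Scripts were tested on simulated counts. DESeq2 1.42.0, RLE scaling, no filter, gates of 2 and 4 markers, 29 Leiden clusters and leaving out each library were alternatives. Alternatives with cells free of other lineages' markers or with minimums of 30 and 20 cells were added after seeing the data. Within a day, CPM were compared with a pseudocount of 1 and a fold of 1.5 among genes at 10 CPM or more. Exact Poisson and conditional 95% intervals (scipy 1.17.1) cover counting error only.

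The members, gene lists and tests were chosen with earlier results of these data known. Named genes are the 9 members, the 3 genes most alike in level to each, list genes called in an edgeR contrast, and up to 3 list genes most apart within days 13 and 21 in microglia and T cells. One gene of these lists is not reported here.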

Additional observations from a re-analysis of the deposited data

Results flagged for a closer look

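Itgb2, the beta chain of LFA-1 and Mac-1, leaned in opposite directions between genotypes in 2 cell classes. In T cells its KO to WT log2 ratio was -0.06, -0.42 and -0.20 on days 0, 13 and 21, so KO was lower on each day. In neutrophils it was 0.19, 0.12 and 0.10, so KO was higher on each day. Every library pair of 1 class thus leaned one way and every pair of the other class the opposite way. Only in T cells of day 13 did the interval for counting error exclude a ratio of 1, at 0.745 (0.628 to 0.882). In T cells of days 0 and 21 and in neutrophils on each day it included 1, so those leanings lay within counting error. The difference between the classes was not tested.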

How the results depend on the processing

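With 1 library for each genotype and day, depth and the number of libraries limit these results, and chains at under 40 CPM in a class rest on few UMIs. Day was a block in the genotype contrast, which paired KO with WT of a day, and with no day block 0 members passed in each of the 5 classes, as with it. Of all repeated values, 49 summary counts moved by over 1.5 times or to or from 0, 206 did not, and 2488 single gene values kept their direction and their side of the threshold, 35 single values lost a call, 20 gained one and 34 moved. The cause of each change below was not tested.

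Between KO and WT over days in microglia, 1 member passed with no low-count filter, and 0 to 2 when a library was left out, against 0. Between day 13 and day 0, the count was 0 in B cells and 1 in T cells by DESeq2, against 1 and 2, and 0 to 1 and 0 to 2 when a library was left out. In microglia it was 3 by DESeq2, 1 without cells holding lymphoid or monocyte markers and 2 to 8 when a library was left out, against 6. In neutrophils it was 0 to 3 when a library was left out, against 3. Between day 21 and day 13, the T cell count was 1 with Leiden clusters, 1 with no low-count filter and 0 to 1 when a library was left out, against 0. The microglial count was 0 to 2 when a library was left out, against 0. In monocytes and macrophages it was 1 with at least 30 cells and 1 with no low-count filter, against 0. In neutrophils it was 0 by DESeq2, with a gate of 4 markers and without cells holding lymphoid markers, 2 with no low-count filter and 0 to 2 when a library was left out, against 1.

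For members 1.5-fold apart within a day, summed over days, the microglial count was 8 with no minimum CPM and 2 without cells holding lymphoid or monocyte markers, against 5. In monocytes and macrophages it was 1 with no minimum CPM, 1 with Leiden clusters and 2 both without cells of high UMIs and without cells holding lymphoid markers, against 0. In neutrophils it was 0 with a pseudocount of 5, 2 with TMM scaling, 10 with no minimum CPM, 2 with a gate of 2 markers, 3 with Leiden clusters and 4 both without cells of high UMIs and without cells holding lymphoid markers, against 1. In T cells it was 8 without cells of high UMIs, against 5. In plasmacytoid dendritic cells it was 0 with a pseudocount of 5, 3 with no minimum CPM and 2 without cells of high UMIs, against 1. In CD4 T cells it was 1 with a pseudocount of 5 and 4 without cells of high UMIs, against 2. The direction turned for 4 single ratios. With Leiden clusters they were Itgb5 in day 21 T cells (log2 0.21) and Itgam in day 13 plasmacytoid dendritic cells (0.91). Without cells of high UMIs they were Itgam in day 13 T cells (0.35) and CD8 T cells (0.0055). The Itgam ratios rested on few UMIs, and that of Itgb5 on 13 and 173 UMIs in gated KO and WT T cells.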
